A study of Mus musculus with 6 samples.

Results

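Matricellular proteins are secreted into the extracellular matrix without forming its scaffold, and they act on adhesion and growth factor signals. Elastic fibres are built on fibrillin microfibrils, to which elastin and a set of smaller glycoproteins attach. Both kinds of protein are typical products of mesenchyme and of early stromal and vascular cells, and the heparin-binding cytokines pleiotrophin and midkine are laid down in the same matrix during embryonic development. The 10 genes described here, of 31265 in the deposited table, are Sparcl1, Fstl1, Tgfbi, Ptn, Mdk, Mfap2, Mfap4, Emilin1, Fbln1 and Cd248. They were selected by gene name, with the values of the oxidized and reduced libraries already known and higher in the oxidized ones, so that difference is given as a description and is not tested again.

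The cells were mouse E14Tg2a embryonic stem cells, labelled WT, and every sample carried the Grx1-roGFP2 sensor in the nucleus, which reports the glutathione redox state. They were grown as hanging-drop embryoid bodies without LIF and 2i for 5 days, dissociated, and gated as live cells. From each of 3 populations (A, B and C), the cells in the top 10% for oxidation and in the top 10% for reduction were sorted, which gave 3 oxidized and 3 reduced libraries of poly(A) RNA. The table gives FPKM (fragments scaled by transcript length and library size), so that levels can be compared between genes. Whether A, B and C were separate clones, cultures or days is not stated, and a single cell line was used.

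Of the 12191 genes that averaged 1 FPKM or more, 97 (0.796%) were called by limma at an adjusted p under 0.05, 63 of them (0.517%) higher in the oxidized libraries. The steps between the lowest values give an estimated 1.20e+07 to 1.83e+07 fragments per library. The oxidized libraries A and B stood apart from the other 4: a ribosomal RNA locus (CT010467) was at 1410 and 1736 FPKM in them and at 34116 to 43825 FPKM elsewhere, and the cytochrome oxidase transcript mt-Co3 was at 2710 and 1525 FPKM against 112 to 199 FPKM. The members' differences and the counts of called genes are also given without both of these libraries. Pou5f1, a defining gene of pluripotent cells, was at 73.0 to 151 FPKM in the oxidized and 168 to 199 FPKM in the reduced libraries, so the sorted cells still held pluripotency transcripts.

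All 10 genes were measured above the filter and all were higher in every oxidized library than in every reduced library. That separation was seen for 16.2% of the genes tested in this direction, and 8.81% were separated in the other. The ratio of the group means ran from 1.74 for Mdk to 4.77 for Cd248. Measured as log2(FPKM + 1), where the added 1 shrinks the differences of low genes, they ran from 0.81 to 1.76 with a median of 1.49, beside a median of 0.08 over all genes tested. By limma 9 of the 10 were among the called genes and Mdk was not. Because this contrast was known when the genes were chosen, nothing is read from that count. With the population as a block, 0 of the 10 were called and 4 genes in all. The count was also 0 without the oxidized A, oxidized B, reduced A or reduced B library and without oxidized A and B together, while it was 6 without reduced C and 9 without oxidized C.

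**Figure D1:**
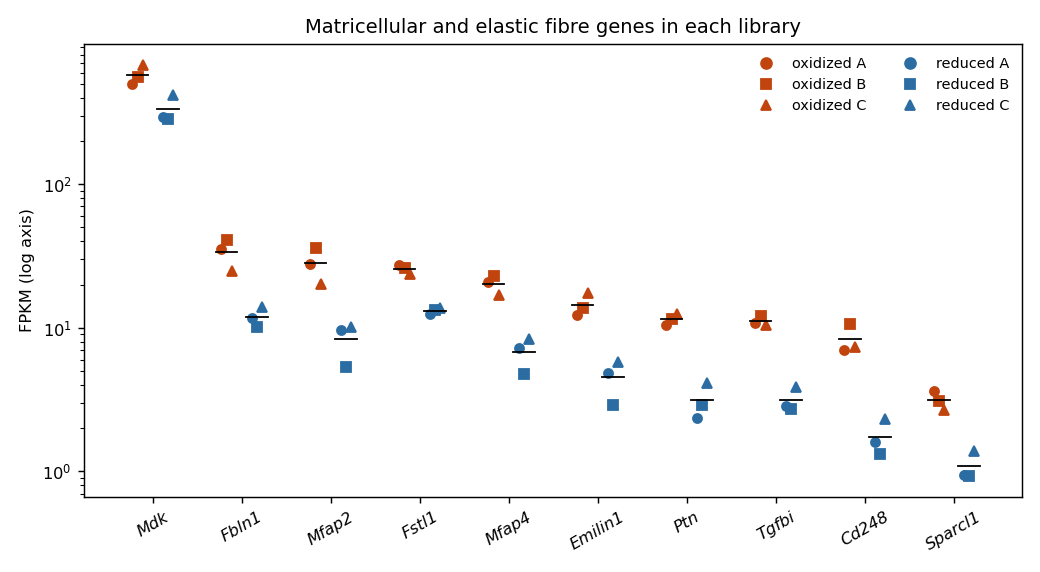
FPKM (log axis) of the 10 genes in each library, ordered by their oxidized mean, with oxidized libraries in orange, reduced libraries in blue, a marker shape for each population and a bar at each group mean (n = 3). Every orange point lies above every blue point of the same gene, and Mdk lies far above the other 9.

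Upstream sequences were available for 6 of the 10 genes, from the RefSeq promoter table (GRCm38.p6, the assembly behind mm10). Of these, 3 are shown, each read 5′ to 3′ on the strand of its gene and ending just before the first base of that gene in GENCODE. They were picked because a motif match lies upstream of both the RefSeq and the GENCODE start. Capitals mark a match to one of the motifs searched.

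Mfap2 (chr4:141010174-141010417, plus strand): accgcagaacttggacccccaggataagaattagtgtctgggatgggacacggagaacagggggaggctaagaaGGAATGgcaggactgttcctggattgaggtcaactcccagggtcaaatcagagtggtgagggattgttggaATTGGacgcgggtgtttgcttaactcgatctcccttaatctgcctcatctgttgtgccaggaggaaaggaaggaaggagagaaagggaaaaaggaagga
Ptn (chr6:36810221-36810429, minus strand): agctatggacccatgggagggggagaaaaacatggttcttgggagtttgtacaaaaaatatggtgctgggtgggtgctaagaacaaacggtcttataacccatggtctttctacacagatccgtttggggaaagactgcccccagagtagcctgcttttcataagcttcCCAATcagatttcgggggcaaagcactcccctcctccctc
Tgfbi (chr13:56609336-56609522, plus strand): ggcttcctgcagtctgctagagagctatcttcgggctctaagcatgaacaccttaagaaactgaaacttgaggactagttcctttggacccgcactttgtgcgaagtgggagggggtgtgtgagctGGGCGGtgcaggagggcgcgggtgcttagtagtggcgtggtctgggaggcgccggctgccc

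The search covered both strands of the 250 bases before each RefSeq start, in 8 windows for Mfap2, Emilin1, Ptn, Tgfbi, Fbln1 and Fstl1, since Mfap2 and Fbln1 have 2 starts each. The GC box GGGCGG was found in 4 of the 8 windows, 1 each of Fbln1, Fstl1, Mfap2 and Tgfbi, and in 32.7% of the 32851 windows of all genes. In Tgfbi it lies 124 bases before the RefSeq start. The CCAAT box was found in 2 of the 8 windows, those of Ptn (81 bases before the start) and Mfap2 (105 bases, on the other strand), and in 33.8% of all windows. The TEAD motif GGAATG was found in 1 of the 8, that of Mfap2 (176 bases before its upstream start), and in 12.6% of all windows. The TATA motif TATAAA (12.4% of all windows), the AP-1 motif TGANTCA (6.7%) and the SMAD palindrome GTCTAGAC (0.2%) were found in 0 of the 8. No match overlapped another. These are matches of letters in short windows, and no shared motif was found for all 6. The 8 windows had a median GC content of 62.4%, against 52.4% for all windows.

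The first 3 genes encode matricellular proteins. Sparcl1 (also called hevin, chr5:104079111-104113733) is a relative of the collagen-binding glycoprotein SPARC. Oxidized A, B and C gave 3.63, 3.11 and 2.68 FPKM, and reduced A, B and C gave 0.947, 0.926 and 1.38 FPKM. It was the least abundant of the 10, and its lowest oxidized value was 1.94 times its highest reduced value. With the depths above and its longest transcript, these values stand for an estimated 44 to 161 fragments per library, the fewest of the set. Its log2 difference was 0.99 (SE 0.18), and 1.46 with a pseudocount of 0.1 in place of 1.

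Fstl1 (chr16:37776873-37836514) encodes follistatin-like 1, a secreted glycoprotein of mesenchyme. The oxidized libraries (A, B, C) had 27.4, 26.0 and 23.6 FPKM, the reduced libraries 12.4, 13.3 and 13.7 FPKM. Of its 50-base stretches 5.3% also occur in other genes. These were the tightest groups of the 10, with the highest oxidized value 1.16 times the lowest and the highest reduced value 1.11 times the lowest. The group means were 25.7 ± 1.91 and 13.2 ± 0.670 FPKM (SD, n = 3), a ratio of 1.95.

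Tgfbi (chr13:56609523-56639562) encodes a matrix protein that binds integrins and collagens and is named for its induction by TGF-beta. Its FPKM was 10.9, 12.2 and 10.5 in oxidized A, B and C. In reduced A, B and C it was 2.87, 2.73 and 3.88. The ratio of the means was 3.53, and the oxidized libraries differed among themselves by less than any of them differed from a reduced one. The profile of Tgfbi over the 6 libraries was also the nearest to the mean profile of the 10, with a root mean square distance of 0.10 on the log2 scale, against 0.33 for Mdk, the farthest.

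Ptn (chr6:36714929-36810220) and Mdk (chr2:91929805-91932297) encode pleiotrophin and midkine, the 2 members of a family of heparin-binding growth factors. Ptn was at 10.4, 11.5 and 12.5 FPKM in the oxidized and at 2.35, 2.92 and 4.10 FPKM in the reduced libraries. Mdk was at 497, 557 and 682 FPKM in the oxidized and at 295, 285 and 417 FPKM in the reduced libraries. Mdk was thus the more abundant by far, with a mean above that of 99.4% of the genes tested, while Ptn was above 52.2%. In both genes population C was the highest of its group.

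Mdk had the smallest difference of the 10 and Ptn one of the largest. The ratio of the means was 1.74 for Mdk and 3.67 for Ptn, and the lowest oxidized Mdk value was only 1.19 times the highest reduced one. The balance of the pair therefore differed: Mdk exceeded Ptn by 47.7, 48.5 and 54.6 times in oxidized A, B and C, and by 125, 97.4 and 102 times in reduced A, B and C. These ratios do not overlap between the groups, as a description of the same contrast. The processed pseudogene Mdk-ps1 was at 0 in 4 libraries and at most 0.263 FPKM, and 0.2% of the 50-base stretches of Mdk occur in another gene.

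The next 4 genes encode proteins of microfibrils and elastic fibres. Mfap2 (chr4:141010418-141015984) encodes MAGP-1, a small glycoprotein on fibrillin microfibrils. The oxidized libraries had 27.97, 36.2 and 20.3 FPKM, and the reduced libraries had 9.59, 5.32 and 10.1 FPKM. Both groups were wide, with the highest reduced value 1.89 times the lowest, and the difference was largest in population B.

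Mfap4 (chr11:61485431-61488900) encodes a fibrinogen-domain protein that binds elastic fibre components. The oxidized libraries had 20.8, 23.0 and 16.8 FPKM and the reduced libraries 7.19, 4.77 and 8.35 FPKM, the same order of libraries as Mfap2. Mfap4 and Mapk7, a kinase gene on the opposite strand, share 89 annotated exonic bases, and no source used here states how strand entered the counting. Mapk7 was at 3.61, 7.65 and 14.0 FPKM in the oxidized and at 11.9, 8.37 and 10.8 FPKM in the reduced libraries, an order unlike that of Mfap4.

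Emilin1 (chr5:30913402-30921277) encodes an elastin microfibril interfacer, a protein at the border of elastin and microfibrils. It was at 12.2, 13.8 and 17.4 FPKM in the oxidized and at 4.87, 2.92 and 5.74 FPKM in the reduced libraries. Unlike Mfap2 and Mfap4, it was highest in oxidized C.

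Fbln1 (chr15:85205949-85286535) encodes fibulin-1, a calcium-binding glycoprotein of elastic fibres and basement membranes. The oxidized libraries had 35.3, 41.2 and 24.8 FPKM, and the reduced libraries had 11.6, 10.1 and 14.0 FPKM. It was second to Mdk in the oxidized libraries. The difference was 1.93 on the log2 scale in population B and 0.78 in population C.

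Cd248 (chr19:5068078-5070682) encodes endosialin, a C-type lectin membrane protein of stromal and perivascular cells that binds fibronectin. Its FPKM was 6.97, 10.5 and 7.39 in the oxidized and 1.60, 1.32 and 2.30 in the reduced libraries. Cd248 had the largest difference of the 10, a ratio of means of 4.77 and a log2 difference of 1.76 (SE 0.21). Even its lowest oxidized value was 3.03 times its highest reduced value.

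By level, Mdk stood alone in both groups. In the oxidized libraries the order was then Fbln1, Mfap2, Fstl1, Mfap4, Emilin1, Ptn, Tgfbi, Cd248 and Sparcl1. Neighbours in this order overlapped in their library values, except for Mdk and Fbln1, Fstl1 and Mfap4, and Cd248 and Sparcl1. In the reduced libraries Fstl1 came before Fbln1, and Tgfbi before Ptn, with overlapping values in both pairs. Mdk made up 75.8% to 83.4% of the summed FPKM of the 10 genes in the oxidized and 84.7% to 86.8% in the reduced libraries. The other 9 genes together reached 156, 178 and 136 FPKM in the oxidized libraries, against 53.5, 44.3 and 63.6 FPKM in the reduced libraries.

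The oxidized library exceeded the reduced library of the same population for every gene in every population. This follows from the separation of the groups described above and adds no support of its own. The median of the 10 differences was 1.43 in A, 1.87 in B and 0.94 in C, beside medians of 0.09, 0.14 and 0.00 over all genes tested. Population C gave the smallest difference for 9 of the 10 genes (for 41.7% of all genes tested), the exception being Emilin1. Population B gave the largest for 7 genes (43.1% of all). Oxidized C did not share the low CT010467 and high mt-Co3 values of oxidized A and B. A smaller difference in population C cannot be told apart from that difference between libraries. Mfap2 spread most, from 0.94 in C to 2.56 in B, and Mdk least, from 0.71 to 0.97. Without the oxidized libraries A and B, oxidized C alone exceeded the mean of the reduced libraries by 0.80 (Fstl1) to 1.78 (Emilin1).

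**Figure D2:**
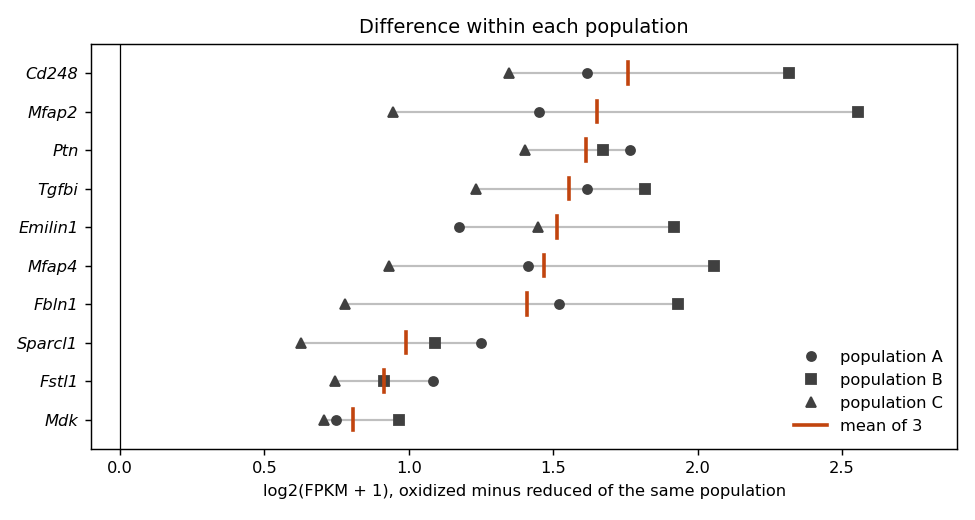
Difference in log2(FPKM + 1) between the oxidized and the reduced library of each population, by gene, with a red bar at the mean of the 3 populations and a grey line over their range. All points lie above 0, as the separation of the groups requires, and population C (triangles) is the lowest point for every gene except Emilin1.

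The 2 groups ranked their populations differently. Reduced C was the highest reduced library for 10 of the 10 genes, where 35.4% of all genes tested had their highest reduced value, and reduced B was the lowest for 8 (39.9% of all). Among the oxidized libraries, C was the lowest for 6 genes (Sparcl1, Fstl1, Tgfbi, Mfap2, Mfap4 and Fbln1; 47.1% of all) and the highest for 3 (Ptn, Mdk and Emilin1; 26.3% of all). These ranks describe single libraries.

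Differences among the populations were tested separately, since the genes were not chosen on them directly. Choosing genes that were higher in the oxidized libraries can favour small shifts among populations. The test is therefore not independent of that choice. In limma's F-test of the population, with the group in the model, 16 of the 12191 genes (0.131%) were called. Of the 10 members 0 were called, and 0 had an unadjusted p under 0.05, as against 652 genes in all. Their adjusted p-values were 0.908 to 0.997 by limma. Relative to A, population C was shifted most for Mdk, by 0.48 on the log2 scale, and Ptn, by 0.42, and relative to B most for Emilin1, by 0.55. With 1 library for each group and population, such shifts were not detectable beyond the residual spread, and whether the oxidized difference itself varies by population was not testable.

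Other genes of the same families and pathways were taken from lists drawn up by family, with earlier results of these data known and without the 10 members. Since the members were picked for being higher, the lists hold what that choice left of each family. Of 81 such genes 44 reached 1 FPKM, 1 was called higher (0.517% of all genes were) and 0 lower. Their median difference was 0.38 on the log2 scale, with 32 positive and 12 negative, where 59.3% of all genes tested were positive.

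Of 17 other elastic fibre and microfibril genes 8 reached 1 FPKM, and 0 were called. Elastin itself (Eln) averaged 0.030 FPKM, Mfap5 0.112 and Fbln5 0.072 FPKM, and Mmrn1 was listed at 0 in every library. The median difference of the 8 was 0.40. Of the fibrillins, Fbn1 was at 1.40 to 4.86 FPKM in the oxidized and 1.17 to 2.25 FPKM in the reduced libraries (log2 difference 0.24, adjusted p = 0.725). Fbn2 was at 2.57 to 4.38 against 0.977 to 1.75 FPKM, with no overlap and the highest difference of the 8 (0.96, adjusted p = 0.0817). Efemp2 (fibulin-4) was at 11.2 to 16.2 FPKM in the oxidized and 6.43 to 11.0 FPKM in the reduced libraries (log2 difference 0.62, adjusted p = 0.180). Fbln2 (fibulin-2) was at 7.91 to 8.89 against 3.16 to 5.50 FPKM (0.78, adjusted p = 0.110). The 2 negative members were Ltbp4, a latent TGF-beta binding protein (-0.42, adjusted p = 0.328), and Efemp1 (fibulin-3), which was at 1.76 to 2.52 against 3.49 to 5.64 FPKM (-0.88, adjusted p = 0.0921). Fbn1, Fbn2 and Efemp1 were named after their values were seen. Efemp2 shares 173 exonic bases with Mus81, so its value may include fragments of that gene.

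Of 26 other matricellular genes 10 reached 1 FPKM and 1 was called. Sparc, the closest relative of Sparcl1, rose by 1.21 on the log2 scale (SE 0.20, adjusted p = 0.0400). It was at 155, 135 and 105 FPKM in the oxidized and at 55.5, 46.2 and 66.8 FPKM in the reduced libraries, with no overlap and at a far higher level than Sparcl1. Sparc lost its call with the population as a block (adjusted p = 0.0902) without any one of oxidized A, oxidized B or the 3 reduced libraries, and without oxidized A and B together. Spp1 (osteopontin) was at 66.8, 55.2 and 32.6 FPKM against 64.4, 76.1 and 37.1 FPKM, and the groups overlapped (adjusted p = 0.766). Ccn1, an integrin-binding immediate early protein, reached 67.1 FPKM in oxidized A and 103 FPKM in oxidized B, while oxidized C, with 24.97 FPKM, lay inside the reduced range of 21.2 to 26.9 FPKM (adjusted p = 0.184).

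Of 11 genes listed as receptors and cell-surface partners of pleiotrophin and midkine 8 reached 1 FPKM and 0 were called. The signalling receptors Ptprz1 and Alk averaged 0.053 and 0.021 FPKM, and Ltk, a relative of Alk, averaged 0.151 FPKM. The heparan sulfate proteoglycan Sdc1 (syndecan-1) was at 44.6, 54.2 and 42.1 FPKM in the oxidized and 25.7, 22.5 and 26.5 FPKM in the reduced libraries, with no overlap (log2 difference 0.88, adjusted p = 0.0522). Sdc4 (syndecan-4) had a difference of -0.10 (adjusted p = 0.870) and Ncl (nucleolin) one of 0.14 (adjusted p = 0.807). The median of the 8 was 0.52.

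Of 16 TGF-beta ligands and receptors and integrin subunits 11 reached 1 FPKM and 0 were called, with a median of 0.40. The most abundant were the integrin subunits Itgb1 (0.60, adjusted p = 0.154) and Itgb5 (0.63, adjusted p = 0.132) and the ligand Tgfb2 (0.65, adjusted p = 0.125), each with groups that did not overlap. Of 7 target and regulator genes of TGF-beta and SMAD signalling, 6 reached 1 FPKM, 0 were called and the median was -0.07. The inhibitory SMAD gene Smad6 had a difference of 0.61 (adjusted p = 0.182), the co-repressor genes Tgif1 -0.52 (adjusted p = 0.201) and Ski -0.07 (adjusted p = 0.873). The fibronectin gene Fn1 was the 1 of 4 Cd248 relatives and ligands that reached 1 FPKM. The oxidized libraries had 26.6, 25.7 and 81.1 FPKM, the reduced libraries 72.4, 56.4 and 62.6 FPKM (log2 difference -0.72, adjusted p = 0.345), so that only oxidized C lay above the reduced range.

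**Figure D3:**
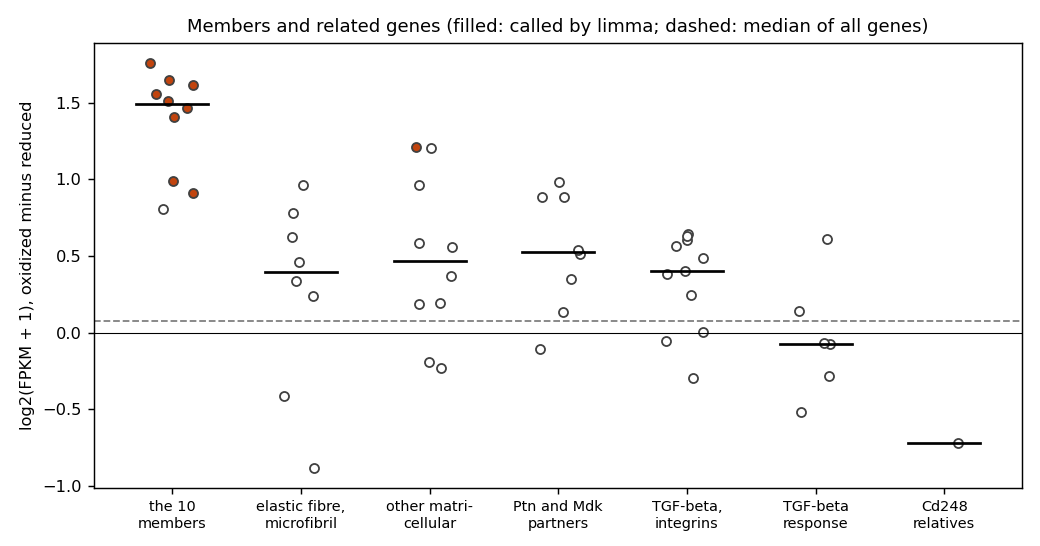
Difference in log2(FPKM + 1), oxidized minus reduced, of the 10 genes and of the 44 related genes above the filter, each dot a gene, filled where limma called it, with a bar at each median and a dashed line at the median of all genes tested (0.08). The 10 were chosen with this contrast known, and among the related genes only Sparc is filled.

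The genes outside these lists whose profile over the 6 libraries was nearest to the mean profile of the 10, among 6491 named genes that averaged 5 FPKM or more, were Pth1r, Atoh8, Fzd2, Igdcc3 and Flrt3. Their root mean square distances were 0.09, 0.11, 0.13, 0.14 and 0.15 on the centred log2 scale. The mean profile is mainly the oxidized against reduced difference on which the members were chosen. Such a search therefore returns genes with a similar difference, and nearness shows no further tie to the members. Pth1r, the parathyroid hormone receptor, was at 13.2, 12.1 and 11.3 FPKM in the oxidized and 4.15, 3.29 and 4.92 FPKM in the reduced libraries. Fzd2, a Wnt receptor, was at 19.7, 29.3 and 20.4 against 7.95, 6.21 and 10.9 FPKM.

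Marker lists of the cell types that could hold these transcripts were summed in each library, and their part in the differences was not tested. Because 1 gene can dominate a sum, each sum is also given without its most abundant gene, a choice made after the values were seen. In such sorted bulk samples, fewer cells of a type and less RNA per cell cannot be told apart. The 13 mesenchyme markers summed to 96.3 to 149 FPKM in the oxidized and 45.4 to 77.6 FPKM in the reduced libraries, and without Snai2 to 60.3 to 124 against 35.6 to 60.2 FPKM. Of these 9 reached 1 FPKM, all 9 with positive differences, and 1, the collagen gene Col3a1, was called. The groups did not overlap for 4 of the 9, beside 16.2% of all genes tested in this direction. They overlapped for the other 5: Col1a1, Col5a1, Pdgfra, Twist1 and Twist2. Over all genes tested, 59.3% had positive differences and 0.517% were called higher. Thy1, Prrx1, Dcn and Lum, which mark mature fibroblasts or limb mesenchyme, each averaged under 1 FPKM over the 6 libraries, Prrx1 the most with 0.980 FPKM. Prrx1 was at 1.31 to 1.74 FPKM in the oxidized and 0.328 to 0.598 FPKM in the reduced libraries. Dcn was at 0.314 to 0.517 against 0.017 to 0.150 FPKM, and Thy1 and Lum overlapped between the groups. The 8 mural cell markers summed to 129 to 195 against 71.9 to 127 FPKM with 0 of 6 called. That separation rested on the smooth muscle actin gene Acta2: without it the sums were 49.4 to 68.1 against 43.6 to 50.8 FPKM and overlapped, and Tagln had a difference of 0.01. The 10 endothelial markers summed to 42.0 to 58.1 against 30.7 to 48.5 FPKM with 0 of 7 called and overlapped. Without the early haemato-endothelial factor gene Etv2 they were 18.6 to 22.6 against 13.0 to 16.1 FPKM, with no overlap, while Pecam1 had a difference of -0.51.

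The 14 extraembryonic endoderm markers summed to 69.3 to 93.6 FPKM in the oxidized and 34.0 to 40.9 FPKM in the reduced libraries. Without Col4a1 the sums were 57.4 to 74.9 against 27.1 to 32.9 FPKM. Differences were positive for 12 of 12 above the filter, beside 59.3% of all genes tested. The groups did not overlap for 10 of the 12 (16.2% of all genes tested) and overlapped for Sox17 and Lamb1. The difference of Lamb1 was 0.17. Afp and Cubn averaged 0.260 and 0.542 FPKM, and Afp overlapped between the groups. The basement membrane collagen gene Col4a2 was the 1 called, beside 0.517% of all genes called higher. Neither Col3a1 nor Col4a2 was called with the population as a block (adjusted p = 0.0613 and 0.0665). The 10 cardiac markers summed to 147 to 204 against 72.8 to 112 FPKM with 0 of 5 called, but Hand1, a gene of lateral mesoderm as well as heart, made up 85.9% to 92.0% of these sums. Without Hand1 they were 16.3 to 20.7 against 9.88 to 14.1 FPKM. Myl7 had a difference of -0.52, and the contractile genes Tnnt2, Myh6 and Myh7 averaged under 1 FPKM. The 10 pluripotency markers summed to 752 to 1875 against 2100 to 2305 FPKM with 0 of 9 called, lowest in oxidized C. Dppa5a made up 62.6% to 75.4% of them. Without Dppa5a the sums were 275 to 636 against 517 to 704 FPKM and overlapped, and Nanog had a positive difference of 0.35 (adjusted p = 0.707). In none of the 6 lists was a marker at 0 in all libraries.

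**Figure D4:**
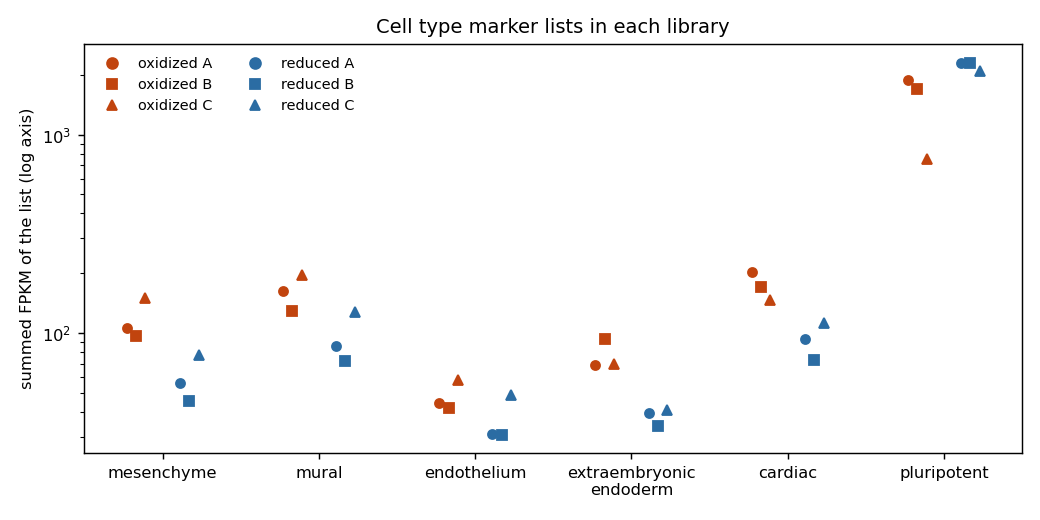
Summed FPKM (log axis) of each marker list in each library, oxidized in orange and reduced in blue, with a marker shape for each population. The mesenchyme, mural, extraembryonic endoderm and cardiac sums lie higher in all oxidized libraries, the endothelial sums overlap, and the pluripotency sums lie lower, with oxidized C at 752 FPKM. Without Acta2 the mural sums overlap, without Dppa5a the pluripotency sums overlap, and the cardiac sums are mostly Hand1. Without Hand1 the cardiac sums still lie apart, and without Etv2 the endothelial sums do. Without Snai2 the lowest oxidized mesenchyme sum is 60.3 FPKM and the highest reduced sum 60.2 FPKM.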

How the data were processed

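Gene expression was measured in 6 libraries, 3 oxidized and 3 reduced. The authors deposited FPKM values for 31265 genes, per the file headers. Tools listed in the submitters' processing notes, without versions, are HISAT2, StringTie, cutadapt, FastQC and edgeR, and the build is mm10. How multi-mapping fragments and strand were handled is not stated. The authors' deposited fold column (a ratio), log2 column and p-value and q-value columns were not used. FPKM values are not counts. Of low values multiplied by transcript length, 15.6% to 19.6% lay within 2% of 1 to 3 whole steps, so whole reads could not be recovered and the depths are estimates.

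A pseudocount of 1 was added before taking log2. The 12191 genes averaging 1 FPKM or more were tested with limma 3.58.1 in R 4.3.3 (group alone, mean-variance trend, two-sided, Benjamini-Hochberg over all genes tested), a procedure tested on simulated data. That simulation drew independent noise for each gene. It therefore did not test the p-values where whole libraries differ, as oxidized A and B did. All adjusted p-values come from limma. Libraries with the same letter came from the same population, per the series' design text. Across genes, deviations from the group means correlated at -0.06 in A, 0.07 in B and 0.20 in C. Between libraries of different letters they correlated at -0.17 to 0.13. Oxidized A with reduced B (0.13) and oxidized B with reduced A (0.12) were above the same-letter values of A and B. For A and B the pairing by letter therefore rests on the design text alone. P-values measure the spread between these libraries, which may be technical.

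The 10 members and all lists were chosen with earlier results of these data known. Alternatives were another pseudocount, other filters and scalings, no trend, the population block and leaving out libraries. Of each list, every called gene and the 3 most abundant measured genes are named, with the 5 genes outside the lists nearest in profile. Genes were located with GENCODE vM21 on GRCm38, the assembly of mm10.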

Additional observations from a re-analysis of the deposited data

How the results depend on the processing

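All 130 alternative values of the 10 members' log2 differences were positive, under a pseudocount of 0.1, quantile normalization, median-ratio scaling, within each population, without any 1 library and without oxidized A and B. Without 1 library they ran from 0.68 to 1.90. Every oxidized value of these genes lay above every reduced one, so only quantile normalization and median-ratio scaling could have reversed a sign. The counts of called genes were not stable. Over all genes, 97 calls became 4 without the filter, 4 with the population as a replicate block, 3 to 1185 without 1 library (1185 without oxidized C), and 4 when oxidized A and B were both left out, an alternative chosen after seeing the data. The 9 called members became 0 without the filter, 0 with the block, 0 to 9 without 1 library and 0 without oxidized A and B. The 1 called matricellular gene became 0 without the filter, 0 with the block, 0 to 2 without 1 library and 0 without oxidized A and B. Without 1 library the counts ran from 0 to 3 for the elastic fibre list, 0 to 4 for the pleiotrophin and midkine partners (1 at a mean of at least 5 FPKM), 0 to 1 for TGF-beta and integrins and 0 to 1 for the Cd248 relatives, and each of these highest counts came without oxidized C. The population test's 16 genes became 0 without the filter and 0 to 579 without 1 library (0 without oxidized B or reduced B, 579 without reduced C), with 0 members called throughout. The causes were not tested. Sparcl1 had the fewest estimated fragments of the 10, 44 to 161 per library.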
